A study of Mus musculus with 10 samples.

Results

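The genes described here build and run the contractile apparatus of smooth muscle, together with the dense bodies, Z-disc-like anchors and membrane plaques that hold it. The list named 45 genes by symbol, and all 45 were measured among 19938 named genes. Each was read through the probe set with 1 gene symbol and the highest mean over the 10 arrays. They were followed in whole oviducts of prepubertal mice that were 21 to 23 days old when injection began. The mutant allele is a lacZ knock-in that disrupts both isoforms of the progesterone receptor gene, Pgr, in the whole animal. PRKO mice carry it on both chromosomes. The PR+/- controls carry it on 1, so no mouse here was wild type for Pgr. All mice of both genotypes received 5 IU of equine chorionic gonadotropin and, 44 to 47 h later, 5 IU of human chorionic gonadotropin (hCG), and oviducts were taken 8 h after hCG. Oviducts of 3 animals were pooled per array, giving 5 arrays for PR+/- and 5 for PRKO. The question was which of these transcripts differ when the receptor is missing.

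Smooth muscle shortens when actin filaments slide over myosin. Calcium and calmodulin switch on myosin light chain kinase, the kinase phosphorylates the regulatory light chain of myosin, and a phosphatase removes the phosphate again. Actin filaments end in dense bodies, which are joined by desmin filaments, and at the cell surface in plaques where integrins are tied to the cytoskeleton. Many genes of this apparatus are driven by serum response factor, SRF, which binds a DNA element called the CArG box, and by its muscle coactivator myocardin. In the oviduct, layers of this muscle surround the epithelium and help to move the gametes and the embryo.

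Promoter sequences were set beside the list because so many of its genes are known SRF targets. The windows ran from 250 bases before to 50 bases after each RefSeq transcript start (build GRCm38.p6), and 39 of the 45 genes had at least 1. Myh11, Actg2, Tagln, Cryab, Nexn and Myocd had none in this table. A CArG box was searched for as CC, then 6 bases that are each A or T, then GG, which reads the same on both strands. It was found for 8 of the 39 genes (20.5%), against 1.81% of the 27025 genes in the table. The core of the response element that progesterone and glucocorticoid receptors share, ACANNNTGT, also reads the same on both strands. It was found for 0 of the 39, against 7.90% of all genes. These counts describe letters in a short window and say nothing of binding. Of the 8 genes with a CArG box, 5 were lower in PRKO and 3 did not pass the test (Filip1l, Myl6 and Ldb3). Of the 39 with a window, 27 were lower and 12 did not pass. Those 5, 1 from each of 5 role groups, are shown here as the called genes with a CArG box. They were chosen by their call, and a link between box and fall was not tested. Each line holds the 250 bases before the start, 5′ to 3′ on the strand of the gene, with CArG boxes in capitals. They are Fhl1 at chrX:56779433-56779682 (+), Myl9 at chr2:156775214-156775463 (+), Cnn2 at chr10:79988350-79988599 (+), Vcl at chr14:20929148-20929397 (+) and Srf at chr17:46556163-46556412 (-).
Fhl1: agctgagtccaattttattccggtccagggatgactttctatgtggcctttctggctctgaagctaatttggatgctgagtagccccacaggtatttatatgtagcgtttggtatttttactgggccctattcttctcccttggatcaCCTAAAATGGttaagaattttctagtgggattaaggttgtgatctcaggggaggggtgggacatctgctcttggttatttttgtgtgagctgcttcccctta
Myl9: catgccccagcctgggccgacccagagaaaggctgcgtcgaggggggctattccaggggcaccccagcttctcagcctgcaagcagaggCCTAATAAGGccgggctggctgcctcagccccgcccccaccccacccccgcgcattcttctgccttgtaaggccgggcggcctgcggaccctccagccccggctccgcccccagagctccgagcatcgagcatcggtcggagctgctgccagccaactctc
Cnn2: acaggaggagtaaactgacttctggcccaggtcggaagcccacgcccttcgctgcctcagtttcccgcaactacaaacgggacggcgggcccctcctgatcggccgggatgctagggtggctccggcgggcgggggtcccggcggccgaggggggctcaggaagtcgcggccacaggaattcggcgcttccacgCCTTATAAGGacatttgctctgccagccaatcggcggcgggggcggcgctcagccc
Vcl: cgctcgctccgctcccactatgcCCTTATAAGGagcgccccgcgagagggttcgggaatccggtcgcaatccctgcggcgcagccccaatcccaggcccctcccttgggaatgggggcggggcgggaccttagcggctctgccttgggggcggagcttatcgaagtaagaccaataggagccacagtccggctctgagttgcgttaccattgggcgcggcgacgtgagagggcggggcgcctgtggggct
Srf: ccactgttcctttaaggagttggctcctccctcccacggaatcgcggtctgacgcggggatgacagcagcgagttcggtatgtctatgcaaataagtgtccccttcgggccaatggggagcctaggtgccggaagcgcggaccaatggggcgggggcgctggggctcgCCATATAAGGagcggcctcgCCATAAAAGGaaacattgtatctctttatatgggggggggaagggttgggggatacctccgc
The first base of the box lay 102 bases before the start in Fhl1, 161 in Myl9, 56 in Cnn2 and 227 in Vcl. Srf, the gene of the factor itself, held 2 boxes, starting 82 and 62 bases before its own start. The boxes of Cnn2 and Vcl have the same 10 letters, CCTTATAAGG, which also begin 62 bases before the start of Filip1l.

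Pgr, the disrupted gene, had log2 signals of 7.55, 7.48, 7.43, 7.27 and 7.35 on PR+/- arrays 1 to 5 and 6.39, 6.32, 6.31, 6.39 and 6.37 on PRKO arrays 1 to 5. All arrays therefore fitted their genotype labels. The middle spread of signals on an array, taken as the interquartile range over its rows, spanned 3.37 to 3.48 in PR+/- and 3.13 to 3.42 in PRKO. Cyp11a1, an ovarian steroidogenic enzyme, stood at 7.04 on PR+/- array 4 and 7.10 on PRKO array 3, against 3.05 to 4.68 on the other 8 arrays.

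Across the list, most genes were lower in PRKO oviducts and none passed as higher. By limma with Benjamini-Hochberg adjustment over all 19938 genes, 33 of 45 passed, where 4.96% of all genes did. All 33 fell (73.3% of the list), against 3.87% of all genes. None rose, against 1.09% of all genes. Without adjustment, 40 were lower and 1 higher at a p under 0.05, where 11.1% of all genes were lower and 10.1% higher. Of the 33, 20 fell by at least 1.5-fold, as did 1.16% of all genes. By at least 2-fold, 3 fell (Des, Actg2 and Pdlim3), as did 57 of all 19938 genes. The median log2 difference, PRKO minus PR+/-, was -0.52 over the list and 0.03 over all genes. On 35 genes all PRKO arrays lay below all PR+/- arrays, as they did for 5.06% of all genes, and on none did they all lie above, as for 2.15% of all genes. These 35 were 32 of the 33 called genes, all but Hspb6, and 3 that did not pass, Actn1, Ppp1r12a and Cald1. Because whole oviducts were measured, fewer muscle cells and less RNA per muscle cell cannot be told apart. With the interquartile range of each array as a covariate, 24 genes fell and the median was -0.47. Without the pair of arrays with high Cyp11a1, 27 fell and the median was -0.54. The shares of all genes given above belong to the main fit, and those of these alternative fits were not counted.

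**Figure D1:**
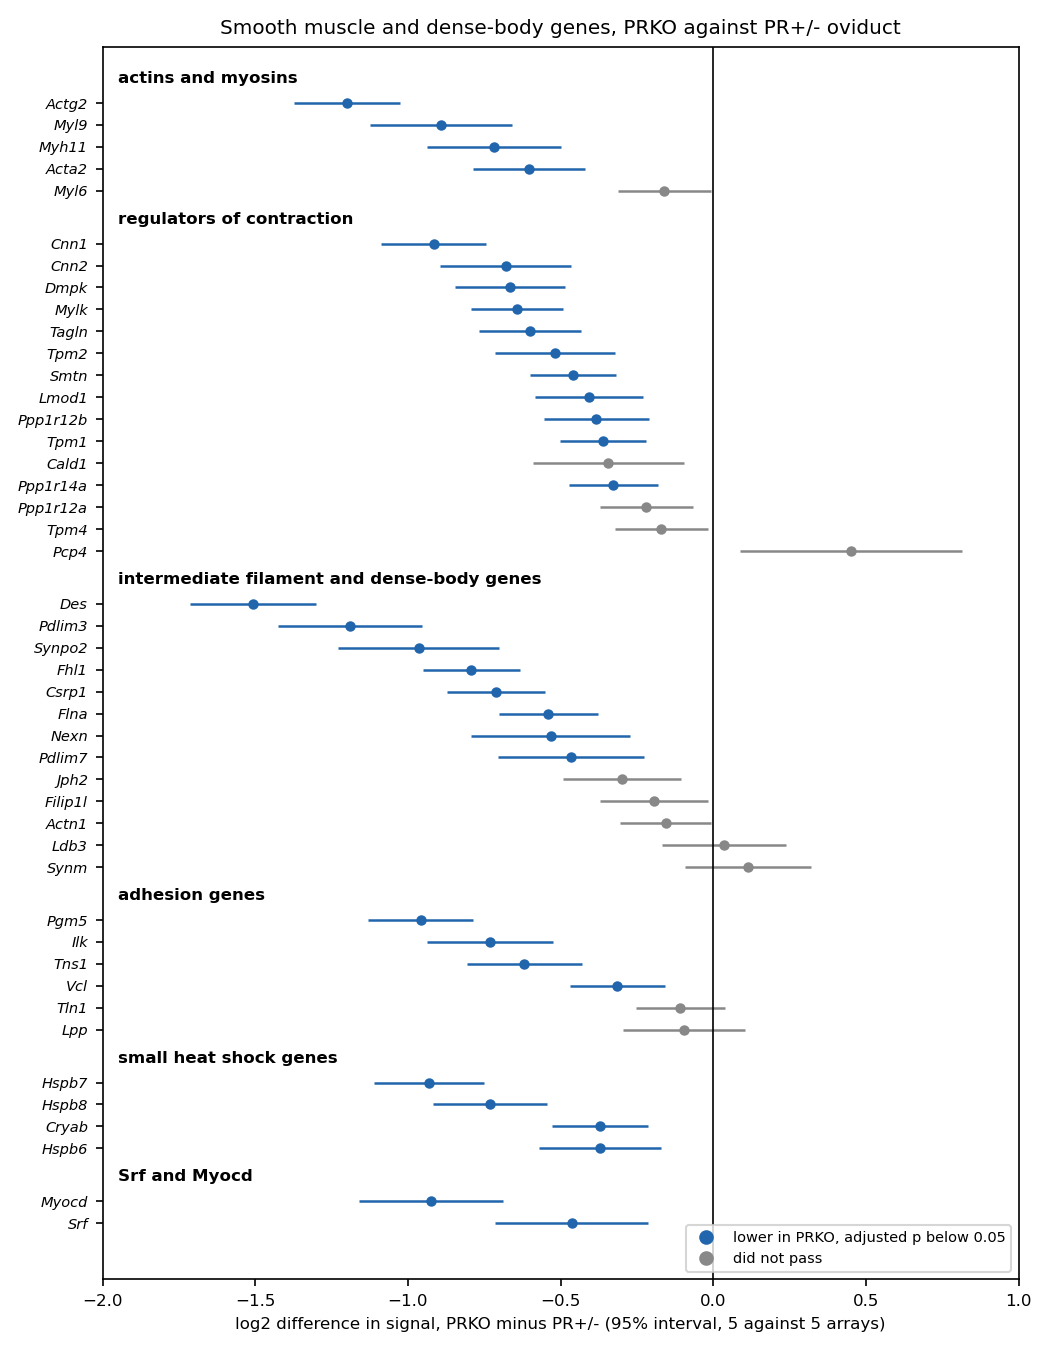
Log2 difference in signal between PRKO and PR+/- oviducts for each of the 45 genes, in 6 role groups, with 95% intervals from limma (5 against 5 arrays). The 33 genes in blue passed an adjusted p of 0.05, all of them to the left of 0, from Des at -1.51 to Vcl at -0.31, while Pcp4 at 0.45 was the farthest to the right and did not pass.

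Actins and myosins form the filaments that slide, and 4 of the 5 fell. Actg2, which encodes the gamma actin of gut, bladder and other visceral muscle, had log2 signals of 9.62, 9.45, 9.38, 9.40 and 9.60 on PR+/- arrays 1 to 5. On PRKO arrays 1 to 5 they were 8.22, 8.12, 8.40, 8.35 and 8.35. The groups lay far apart relative to the spread within each, and the mean log2 difference was -1.20 ± 0.081 (SE, n = 5 against 5, limma adjusted p = 1.00e-06). PRKO oviducts thus held 43.5% of the PR+/- signal of this gene.

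Myl9, the regulatory light chain that the kinase phosphorylates, stood at 10.76, 10.70, 10.66, 10.34 and 10.62 in PR+/- and at 9.44, 9.68, 9.64, 9.95 and 9.91 in PRKO. The lowest PR+/- value was that of array 4 and still exceeded the highest PRKO value. The log2 difference was -0.89 ± 0.11 (1.86-fold lower, limma adjusted p = 1.83e-04). Acta2, the alpha actin that vascular and visceral smooth muscle share, stood at 12.27, 12.27, 12.30, 12.21 and 12.29 in PR+/- and at 11.36, 11.68, 11.79, 11.77 and 11.73 in PRKO. Its PR+/- arrays were tightly grouped (SD 0.037) and PRKO array 1 lay lowest of all. The difference was -0.60 ± 0.085 (1.52-fold lower, limma adjusted p = 6.64e-04).

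Myh11, the myosin heavy chain of smooth muscle, fell by 0.72 on the log2 scale, and its PRKO arrays ranged from 9.57 on array 1 to 10.10 on array 5. Myl6, the essential light chain that muscle and other cells share, did not pass. Its signals were 10.93, 10.82, 10.77, 10.70 and 10.81 in PR+/- and 10.75, 10.62, 10.67, 10.64 and 10.55 in PRKO, so the groups overlapped. The log2 difference was -0.16 (95% interval -0.31 to -0.01, adjusted p = 0.214), and the 6 probe sets that carry its symbol gave differences of -0.13 to -0.18. Actin genes are very similar in their coding sequence, as are copies of Myl6 elsewhere in the genome. The probes were not examined here, so part of such a signal may be shared.

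Of 15 genes that regulate contraction at the thin filament or through the light chain, 11 fell. Cnn1, a calponin that binds actin and slows the myosin ATPase, had signals of 9.33, 9.31, 9.16, 9.03 and 9.32 in PR+/- and 8.21, 8.36, 8.37, 8.25 and 8.38 in PRKO. Its PRKO arrays were close together and the difference was -0.92 ± 0.080 (1.89-fold lower, limma adjusted p = 9.51e-06). Mylk, the light chain kinase, stood at 9.01, 8.89, 8.90, 8.84 and 8.99 in PR+/- and at 8.22, 8.25, 8.28, 8.25 and 8.43 in PRKO. The highest PRKO value, on array 5, remained below every PR+/- value, and the difference was -0.64 ± 0.071 (limma adjusted p = 7.35e-05). Dmpk, a kinase named for myotonic dystrophy that can act on the light chain phosphatase, stood at 9.41, 9.42, 9.36, 9.17 and 9.48 against 8.66, 8.75, 8.77, 8.50 and 8.83. It fell by 0.67 on the log2 scale.

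The remaining falls among regulators were graded. Cnn2, a calponin of muscle and other cells, fell by 0.68, the actin-bundling protein gene Tagln by 0.60 and Smtn, which encodes the actin-binding smoothelin, by 0.46. Tropomyosins lie along the thin filament, and 2 of the 3 fell, Tpm2 by 0.52 and Tpm1 by 0.36. Lmod1, a leiomodin that starts new actin filaments, fell by 0.41. Tpm4, a tropomyosin of muscle and other cells, did not pass. Its signals of 9.68, 9.87, 9.77, 9.77 and 9.77 in PR+/- overlapped those of 9.51, 9.72, 9.62, 9.54 and 9.61 in PRKO (log2 difference -0.17, 95% interval -0.32 to -0.02).

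For the light chain phosphatase the readings were smaller or depended on the probe set. Ppp1r14a, an inhibitor of this enzyme, fell by 0.33. Ppp1r12a, its main targeting subunit, had a log2 difference of -0.22 (95% interval -0.37 to -0.07, adjusted p = 0.0959) and did not pass. Ppp1r12b, a related subunit of muscle, fell by 0.38 on its brightest probe set, but its other 6 probe sets had differences from near 0 to 0.32. The mean over its probe sets gave 0.066 (adjusted p = 0.584), so the direction for this gene rests on 1 probe set. Cald1, the actin-binding caldesmon, had a difference of -0.34 (adjusted p = 0.107), and its PRKO values spread from 7.75 on array 1 to 8.38 on arrays 4 and 5.

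Pcp4, a small peptide that binds calmodulin, was the 1 gene of the list with an unadjusted p under 0.05 in the other direction, and is shown for that reason. It stood at 6.66, 6.14, 6.80, 6.52 and 6.61 in PR+/- and at 7.43, 6.41, 6.91, 6.95 and 7.30 in PRKO. The groups overlapped through PRKO array 2, and the difference was 0.45 ± 0.17 (limma adjusted p = 0.145). Without PRKO array 2 it was 0.60 with an adjusted p of 0.0267.

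**Figure D2:**
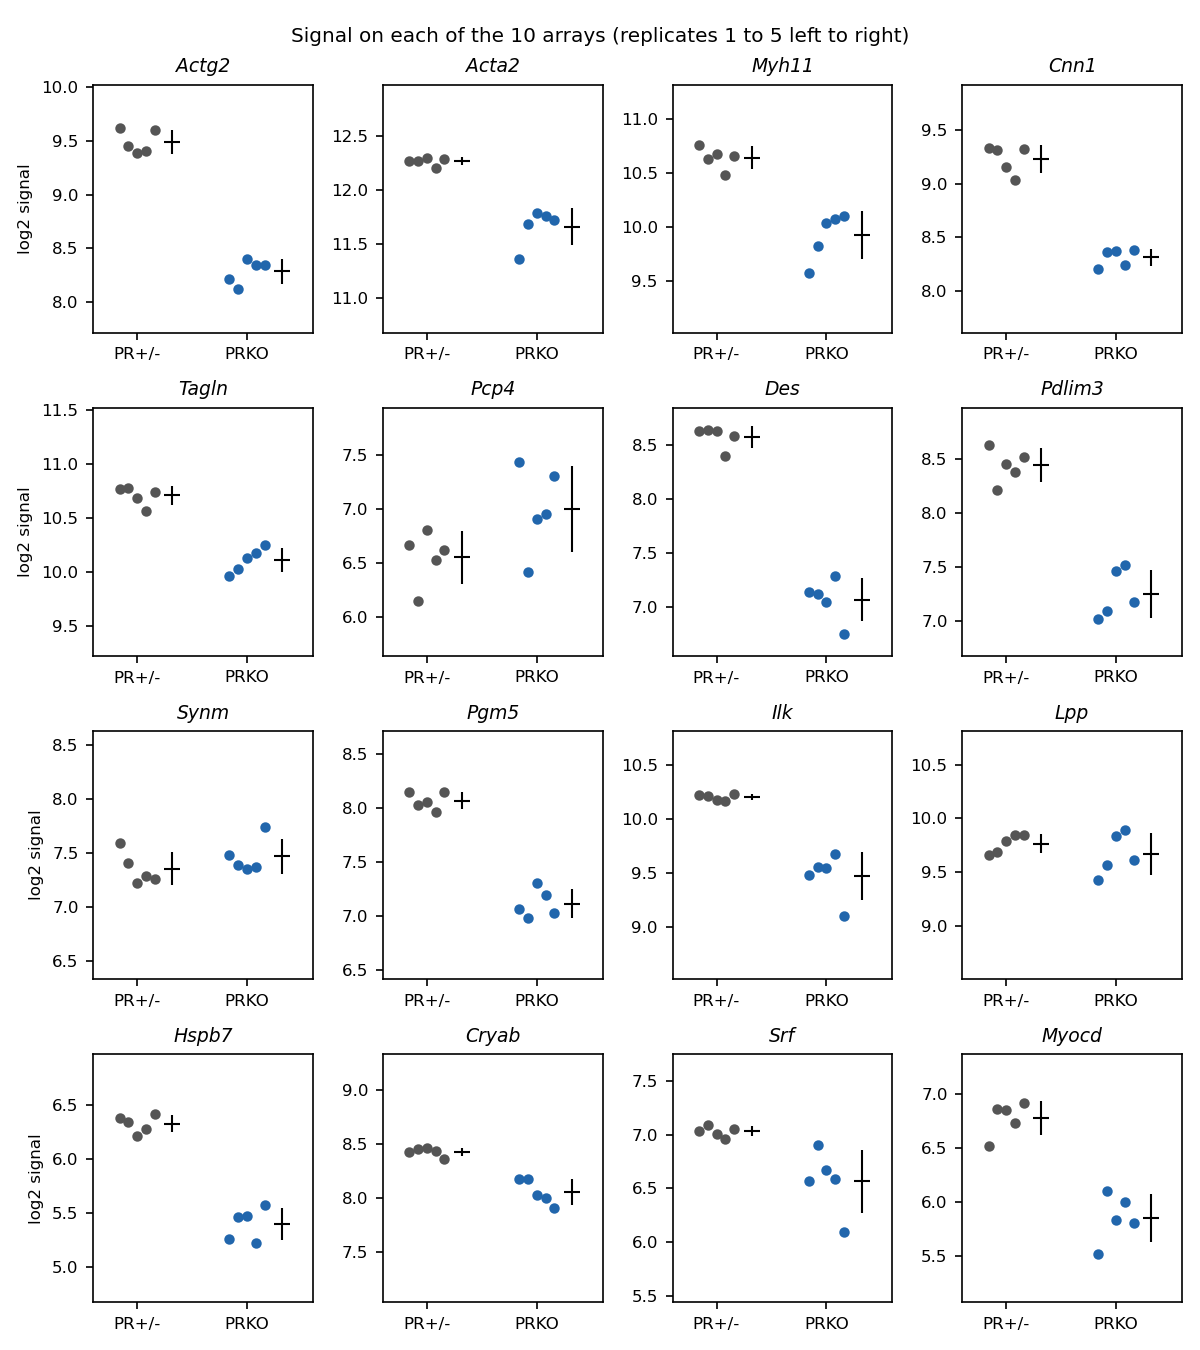
Log2 signal of 16 of the genes on each of the 10 arrays, PR+/- in grey and PRKO in blue, with the mean and SD of each group beside the points; every panel spans the same number of log2 units. The groups are apart for Actg2, Des, Pgm5 and Hspb7 and overlap for Synm, Lpp and Pcp4.

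Intermediate filament and dense-body genes held the deepest fall of the list, and 8 of 13 fell. Des encodes desmin, the filament that links dense bodies to each other and to the membrane. Its signals were 8.63, 8.64, 8.63, 8.40 and 8.58 in PR+/- and 7.14, 7.12, 7.04, 7.28 and 6.75 in PRKO. The lowest PR+/- array was number 4 and the lowest PRKO array was number 5, and the gap between the groups exceeded the range of either. PRKO oviducts held 35.2% of the PR+/- signal (log2 difference -1.51 ± 0.096, limma adjusted p = 6.76e-07). Synm, the synemin that assembles with desmin, did not follow it, with a difference of 0.11 (95% interval -0.09 to 0.32, adjusted p = 0.518).

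Pdlim3 encodes a PDZ and LIM protein that binds alpha-actinin at Z-discs. It stood at 8.63, 8.22, 8.46, 8.39 and 8.52 in PR+/- and at 7.02, 7.10, 7.46, 7.52 and 7.18 in PRKO, with no overlap. The difference was -1.19 ± 0.11 (2.28-fold lower, limma adjusted p = 1.45e-05). Fhl1, a LIM protein of muscle, stood at 9.42, 9.55, 9.39, 9.24 and 9.42 against 8.66, 8.61, 8.66, 8.51 and 8.62. Its PRKO arrays lay within a narrow band (SD 0.062), and it fell by 0.79 ± 0.074 (limma adjusted p = 1.56e-05).

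Synpo2, an actin-bundling protein of Z-discs and dense bodies, fell by 0.97, the LIM protein gene Csrp1 by 0.71 and the actin crosslinker filamin A, Flna, by 0.54. Nexn, an actin-binding protein of Z-discs, fell by 0.53 and Pdlim7, another PDZ and LIM protein gene, by 0.47. Actn1, an alpha-actinin that crosslinks actin in dense bodies and in the adhesions of many cells, did not pass. It stood at 9.53, 9.61, 9.65, 9.51 and 9.53 in PR+/- and at 9.39, 9.48, 9.36, 9.50 and 9.32 in PRKO. The groups only just failed to overlap, and the difference was -0.16 (95% interval -0.30 to -0.01, adjusted p = 0.218).

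The other genes of the group did not pass on their brightest probe sets. Ldb3, a Z-disc protein best known from striated muscle, had a difference of 0.03 (95% interval -0.17 to 0.24). Jph2, a junctophilin that ties the sarcoplasmic reticulum to the membrane, had one of -0.30 (adjusted p = 0.0751), while its second, dimmer probe set read -0.47 and passed. Filip1l, an interactor of filamin, had a difference of -0.19 (adjusted p = 0.198).

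Adhesion genes couple the filaments to integrins in the membrane plaque, and 4 of 6 fell. Pgm5, a phosphoglucomutase relative that sits at muscle adhesion sites, stood at 8.15, 8.03, 8.06, 7.96 and 8.14 in PR+/- and at 7.06, 6.97, 7.30, 7.19 and 7.02 in PRKO. Each PRKO array lay more than 0.5 below the lowest PR+/- array, and the difference was -0.96 ± 0.080 (1.94-fold lower, limma adjusted p = 6.71e-06). Ilk, the integrin-linked scaffold protein, stood at 10.22, 10.21, 10.18, 10.17 and 10.23 against 9.48, 9.56, 9.55, 9.68 and 9.10. PR+/- arrays were nearly equal (SD 0.029) and PRKO array 5 lay lowest, and the gene fell by 0.73 ± 0.097 (limma adjusted p = 3.69e-04).

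Tns1, a tensin that joins actin to integrins, stood at 9.03, 8.98, 8.84, 8.78 and 9.13 against 8.37, 8.48, 8.39, 8.16 and 8.25, and fell by 0.62. Of its other 5 probe sets, 4 had differences of -0.66 to -0.30 and 1 of 0.27. Vcl, vinculin, fell by 0.31. Talin 1, from Tln1, and the LIM protein Lpp sit at the same sites in many cell types, and neither gene passed. Lpp stood at 9.66, 9.69, 9.79, 9.85 and 9.84 in PR+/- and at 9.43, 9.57, 9.84, 9.89 and 9.62 in PRKO, so PRKO arrays 3 and 4 lay at the level of the highest controls. Its difference was -0.10 (95% interval -0.30 to 0.10), and that of Tln1 was -0.11 (-0.25 to 0.04). Of the other 2 probe sets of Lpp, both dimmer, 1 read -0.34 and passed (limma adjusted p = 0.0481) and the other read -0.07.

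All 4 small heat shock genes fell. These proteins chaperone desmin, filamin and actin in muscle. Hspb7 stood at 6.38, 6.35, 6.22, 6.28 and 6.42 in PR+/- and at 5.26, 5.46, 5.47, 5.22 and 5.57 in PRKO, and fell by 0.93 ± 0.083 (limma adjusted p = 1.11e-05). Hspb8, which works with the cochaperone BAG3, stood at 8.43, 8.22, 8.25, 8.34 and 8.36 against 7.80, 7.48, 7.55, 7.71 and 7.39, and fell by 0.73. Neither gene's groups overlapped. Cryab, alpha B crystallin, stood at 8.43, 8.46, 8.46, 8.43 and 8.37 against 8.18, 8.17, 8.03, 8.00 and 7.91, a smaller fall of 0.37 that was also free of overlap. Hspb6, a relaxation-linked member of the family, fell by 0.37 with an adjusted p of 0.0353. Its highest PRKO value, 6.27 on array 1, was above the 6.24 of PR+/- array 4, and its call was lost without any 1 of 7 arrays.

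Srf and Myocd, which encode the factor and the coactivator described above, both fell. Their part in the falls of the other genes was not tested. Myocd stood at 6.52, 6.86, 6.85, 6.73 and 6.92 in PR+/- and at 5.52, 6.10, 5.83, 6.001 and 5.80 in PRKO. The groups were apart on every array, and PRKO oviducts held 52.7% of the PR+/- signal (log2 difference -0.92 ± 0.11, limma adjusted p = 1.44e-04). Srf stood at 7.04, 7.09, 7.01, 6.96 and 7.05 in PR+/- and at 6.57, 6.90, 6.67, 6.59 and 6.10 in PRKO. PR+/- arrays were tight (SD 0.047), PRKO arrays were spread (SD 0.29), and array 2 nearly reached the controls. The difference was -0.46 ± 0.12 (limma adjusted p = 0.0346), and with the interquartile range as a covariate it was -0.17 (adjusted p = 0.569).

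Srf was also the called gene that lost its call most often when 1 array was left out. It was lost without any 1 of PR+/- arrays 1 to 5 or PRKO arrays 1, 3 and 4 (adjusted p 0.0501 to 0.0882), while the difference stayed at -0.49 to -0.45. Without PRKO array 5 it was -0.35 and still passed. Those of Nexn, Pdlim7 and Vcl were lost without 5, 6 and 3 of the single arrays, at an adjusted p of at most 0.0736. That of Hspb6 was lost without 7 of them, at an adjusted p of at most 0.1002. Myocd kept its call in all of these fits.

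Array by array, the list was lower on each PRKO array. The median deviation of the 45 genes from the PR+/- mean was -0.61, -0.45, -0.44, -0.49 and -0.52 on PRKO arrays 1 to 5, and it lay between -0.07 and 0.05 on the PR+/- arrays. On each PRKO array, 40 to 42 of the 45 genes were below all 5 PR+/- arrays. The share of all genes below them on a single array was not counted. The median deviation of all genes was -0.02 to 0.04 on the PRKO arrays. Within PR+/-, array 4 was the lowest, with 39 of 45 genes below the group mean, and it was also the array with high Cyp11a1. PRKO array 3, the other array with high Cyp11a1, had the least reduced median of its group (-0.44), by a small margin. A link between Cyp11a1 and the list was not tested. Within PRKO the role groups did not rank the arrays alike. Actins and myosins were lowest on array 1 (median -1.07, against -0.81 to -0.54 on the other 4). Small heat shock genes were least reduced there (-0.38, against -0.64 to -0.57). The median SD of a gene was 0.091 in PR+/- and 0.14 in PRKO, and 38 of the 45 had the larger SD in PRKO, as did 74.7% of all genes.

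**Figure D3:**
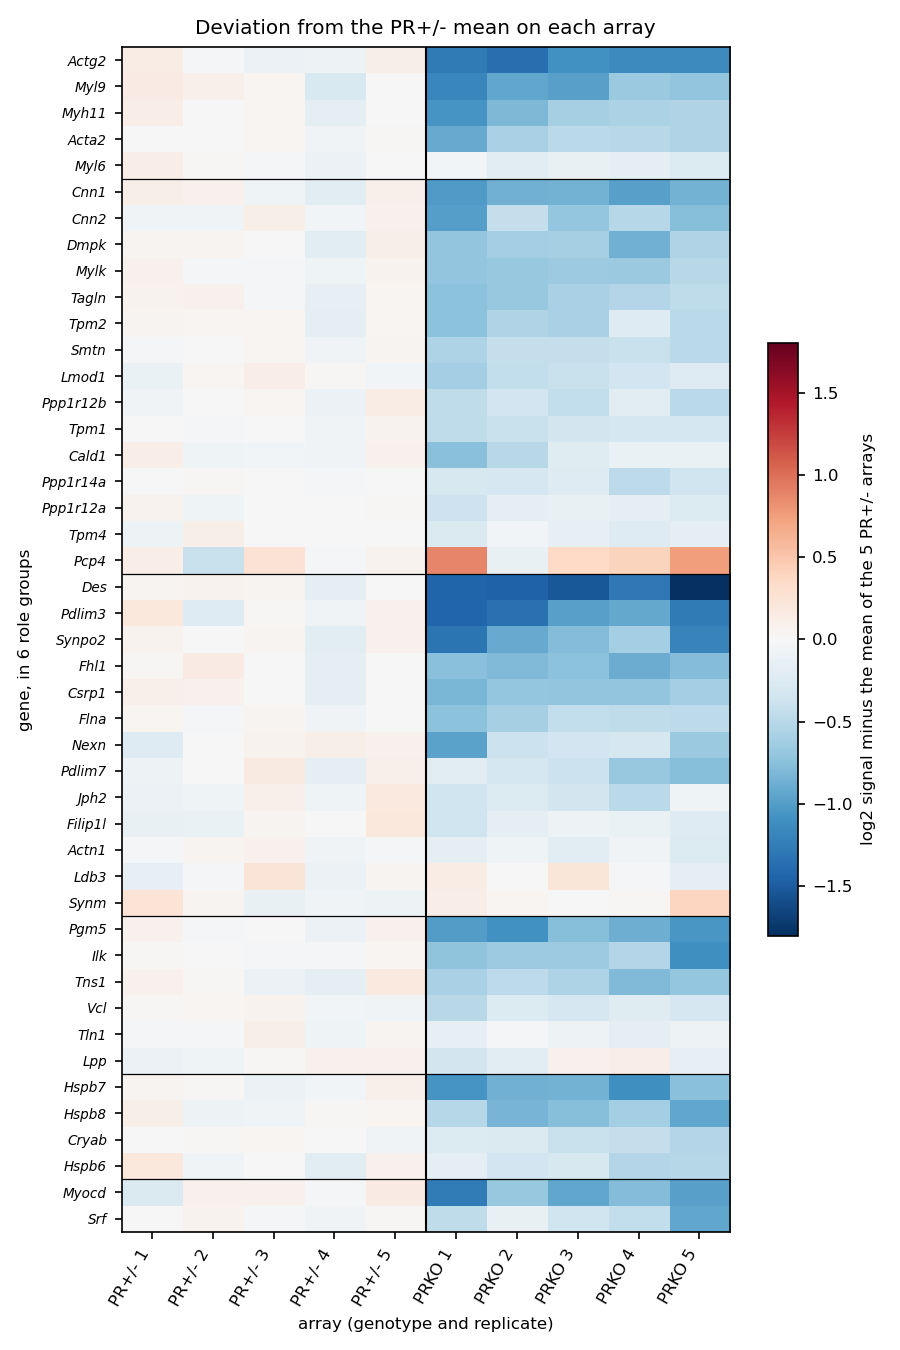
Log2 signal of each gene on each array minus the mean of the 5 PR+/- arrays (blue lower, red higher; lines separate the 6 role groups). Blue fills the PRKO side of the panel for most genes, darkest for Des, and Pcp4 is red on 4 of the 5 PRKO arrays.

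Members were next set against relatives that are not confined to muscle. For each of 10 pairs the within-array log2 difference between member and relative was compared between genotypes with a two-sided exact permutation test, adjusted over the 10 pairs. The smallest p that 252 arrangements allow is 0.00794. Of the 10 pairs, 7 reached it (adjusted p = 0.0113), with no overlap between groups, and in each the member was the lower. The pairs were chosen with earlier results of these data known, so these p-values are not independent support. Some relatives that fell were not paired, among them Tmod2 (-0.42) and Myl12a (-0.50). Des fell more than Vim, the vimentin gene, by 1.24 on the log2 scale. Actg2 fell more than Actb, the cytoplasmic beta actin, by 0.96, and Myh11 more than Myh9, a non-muscle myosin heavy chain, by 0.75. For Tpm2 against Tpm3 the gap was -0.60, for Tagln against Tagln2 -0.47, for Lmod1 against the tropomodulin gene Tmod3 -0.41 and for Acta2 against Actb -0.37. After quantile normalization the last of these was -0.25 with an adjusted p of 0.317.

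The relatives themselves had smaller differences than the members in these 7 pairs. Myh9, Tpm3 and Tmod3 had log2 differences of 0.03, 0.08 and 0.00, and Tagln2, Actb and Vim had -0.13, -0.24 and -0.27, none past the test. Other pairs did not separate. Cnn3, the calponin of non-muscle cells, fell by 0.65 (limma adjusted p = 6.71e-04), and its gap to Cnn1 of -0.26 did not pass (exact permutation p = 0.0873). Actn4, the second widely expressed alpha-actinin, fell by 0.29, more than Actn1, though that gap of 0.13 did not pass after adjustment (exact permutation p = 0.0476, adjusted p = 0.0595). Hspb6 and Hspb1 had nearly equal differences of -0.37 and -0.36 (exact permutation p = 0.976). A wider list of 33 measured relatives also holds dim genes of few tissues such as Lmod2, Lmod3 and Cryaa. In limma 5 of the 33 fell (Cnn3, Filip1, Myl12a, Tmod2 and Actn4) and 0 rose. The fallen were 15.2% of this list, against 3.87% of all genes, so it too was lower more often than all genes. Without adjustment the counts at a p under 0.05 were 8 and 2, where 11.1% of all genes were lower and 10.1% higher. The median of the 33 was 0.00.

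**Figure D4:**
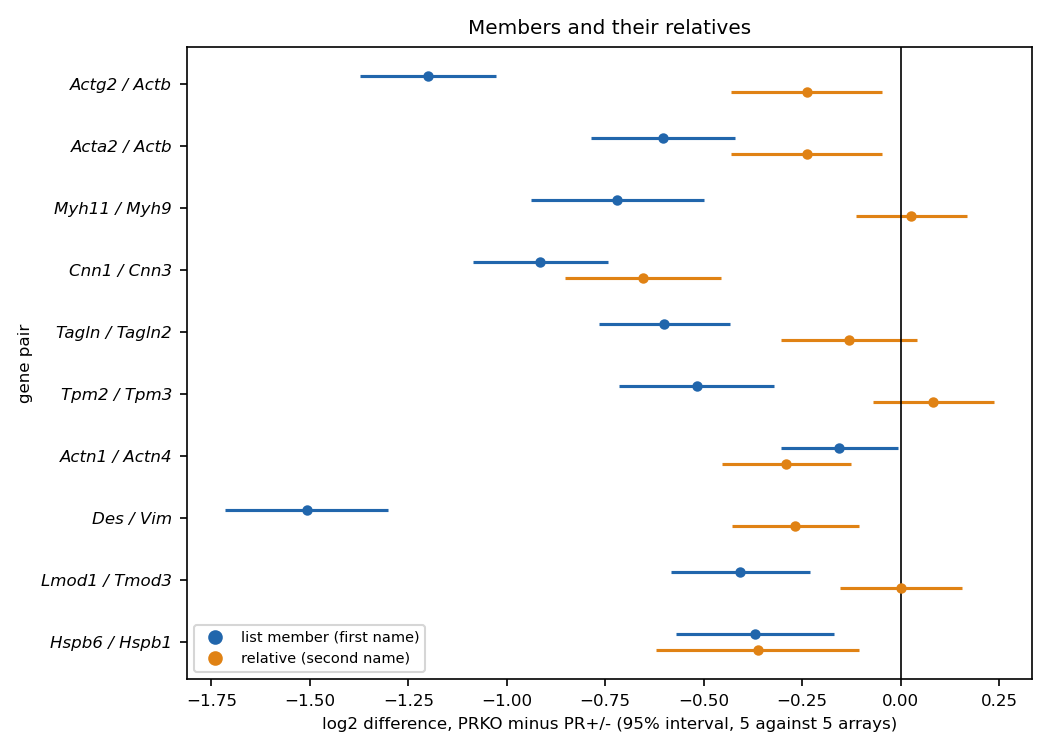
Log2 difference between PRKO and PR+/- (95% interval, 5 against 5 arrays) for a list member, in blue, and its relative, in orange, in 10 pairs. Member and relative are far apart for Des and Vim and for Actg2 and Actb, and overlap for Hspb6 and Hspb1.

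Other genes of the same pathways, listed apart from the 45, were lower in part. Among 58 genes of the plaque, the costamere and caveolae, 15 fell and 0 rose by limma (26 and 3 without adjustment, at a p under 0.05), where 3.87% of all genes fell and, without adjustment, 11.1% were lower and 10.1% higher. These shares of all genes apply to each list that follows. The 58 genes had a median log2 difference of -0.14. Tgfb1i1, a LIM adaptor of adhesion sites, fell by 0.71, Cav1, the caveolin of smooth muscle and endothelium, by 0.62, Lims2, a partner of integrin-linked kinase, by 0.63, and Pdlim1 by 0.85. Of 30 genes that signal to the light chain, 4 fell and 0 rose (10 and 0 without adjustment). These were Camk2d, a calmodulin-dependent kinase (-0.60), Cacna1c, the pore of the L-type calcium channel (-0.42), Dapk3, a kinase that can phosphorylate the light chain (-0.49), and Rgs5, a brake on G protein signalling (-0.48). Of 24 further smooth muscle genes, some of them also in those lists, 6 fell and 0 rose (12 and 0 without adjustment). Pde5a, the cyclic GMP phosphodiesterase, fell by 1.11 and Rbpms, an RNA-binding protein of smooth muscle, by 0.56.

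Upstream of SRF, 4 of 31 measured genes fell and 0 rose by limma. Without adjustment 7 were lower and 3 higher, and the share of higher genes was no larger than among all genes (10.1%). Rhob, a small GTPase, fell by 0.80 (limma adjusted p = 1.27e-04). The cofilins Cfl1 and Cfl2, which sever actin filaments, fell by 0.35 and 0.30, and Arhgef25 by 0.30. The other SRF coactivator genes went opposite ways without passing, Mrtfa at -0.34 (adjusted p = 0.0619) and Mrtfb at 0.27 (adjusted p = 0.0547). Klf4, which can oppose myocardin, had a difference of 0.31 (adjusted p = 0.0766).

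Marker genes of other cells in the wall were read on the same arrays, as a list's mean log2 signal per array. For 8 smooth muscle markers, all of them members of the list and all lower, it was 9.29 to 9.44 in PR+/- and 8.45 to 8.68 in PRKO. Pericyte markers ran at 6.59 to 6.78 and 6.13 to 6.30, with 5 lower and 0 higher without adjustment. By limma 4 of the 8 fell, Kcnj8 and Abcc9, which form a potassium channel, Mcam and Rgs5. Smooth muscle cells express several of these as well. Fibroblast markers ran at 8.50 to 8.66 and 8.34 to 8.58 (2 of 10 fell, 6 lower and 1 higher without adjustment). Endothelial markers ran at 6.06 to 6.20 and 5.83 to 6.10 (2 of 12, 4 and 0 without adjustment). Mesothelial markers ran at 8.25 to 8.52 and 7.95 to 8.35 (2 of 6, 3 and 0 without adjustment). The median log2 differences of these lists were -0.23, -0.15 and -0.22. Secretory epithelium markers ran at 8.46 to 8.62 and 8.20 to 8.56 (1 of 10, 1 and 0 without adjustment). Multiciliated cell markers ran at 7.73 to 8.02 and 7.76 to 7.97. In that last list 0 of 11 fell or rose, and without adjustment 0 were lower and 1 higher. Striated muscle markers were dim, at 4.30 to 4.44 and 4.39 to 4.55, and 0 of 18 fell or rose (0 and 3 without adjustment). Neuron and glia markers, also dim on the whole, ran at 4.61 to 4.74 and 4.76 to 5.13, so every PRKO array was above every PR+/- array. All 6 measured were higher in PRKO on average, with a median log2 difference of 0.24. None passed by limma, and 4 were higher at an unadjusted p under 0.05. They were S100b (0.54), Sox10 (0.32), and the very dim Tubb3 and Elavl4, at PR+/- means of 3.56 and 2.70. The dim striated muscle list and the ovary and cumulus list also had medians above 0, at 0.12 and 0.13. Leukocyte markers ran at 5.94 to 6.17 and 6.03 to 6.26 (0 of 7 fell or rose, 0 and 1 without adjustment). Ovary and cumulus markers ran at 3.76 to 4.67 and 3.74 to 4.70 (0 of 12, 1 and 2 without adjustment). The part of such other cells in the result was not tested.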

How the data were processed

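Total RNA of each oviduct pool was made into biotinylated cRNA with an Affymetrix whole-transcript kit, per the labels. The authors deposited 1 log2 value per probe set and array, and the submitters' processing notes name Partek. Its version, background correction, normalization and probe summary were not given in the sources used here. A log2 scale of the deposited values was inferred from their range (1.09 to 13.6), so folds hold only on that reading. They were not normalized again. Of 35557 rows, 21789 had 1 gene symbol in a table of the platform's annotation, 1621 several and 12147 none; 19938 genes were tested with limma 3.58.1 in R 4.3.3 (genotype as the term, moderated variances, Benjamini-Hochberg over all genes, called at 0.05). Values with ± are SE of a log2 difference unless SD is stated. No filter on dim signal was applied, and detection calls were not used here. An array understates folds near background. Precision is limited by 5 arrays per genotype, each a separate pool, so the tests rest on differences among pools.

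The 45 genes, the role groups, the pairs and the other lists were chosen with earlier results of these data known, and no list was tested as a set. In each role group, values of every array are given for up to 3 called genes of smallest p and for 1 gene that did not pass. The procedure was tested on simulated data. Promoters are those of RefSeq, GRCm38.p6. Alternatives were other normalizations, dim-probe filters, probe sets averaged per gene, other variance models, array weights, the interquartile range as a covariate, the replicate number as a block, and arrays left out.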

Additional observations from a re-analysis of the deposited data

Results flagged for a closer look

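In 5 of 92 groups of 5 values (each gene of the list and Pgr, in each genotype), 1 array stood apart from the other 4 by more than 0.71 of the group's range. Chance alone flags about 1 in 20 such groups. PR+/- array 4 was the low one for 3 genes. Des read 8.40 there against 8.58 to 8.64 on the other 4 arrays, Tpm2 7.98 against 8.17 to 8.20, and Synpo2 8.07 against 8.28 to 8.36. In PRKO, Acta2 read 11.36 on array 1 against 11.68 to 11.79, and Mylk read 8.43 on array 5 against 8.22 to 8.28. All 5 genes differed between genotypes without overlap, and leaving out any single array did not end the call of any of them.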

How the results depend on the processing

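Over 22 alternatives, 24 to 35 genes of the list fell and the median log2 difference was -0.56 to -0.45, while that of all genes was -0.04 to 0.03. The share of all genes that fell in each alternative was not counted. Leaving out each array in turn gave 28 to 33 lower and 0 to 1 higher, with medians of -0.56 to -0.46; the 1 that rose, without PRKO array 2, was Pcp4. With the replicate number as a block, 34 fell and 1 rose, again Pcp4 (0.45, adjusted p = 0.0386). Deviations of same-numbered arrays correlated at -0.01 to 0.16. PR+/- arrays 2, 4 and 5 correlated best with the PRKO array of their own number, and arrays 1 and 3 did not. On this mixed reading the numbers were not taken to pair the samples. Of the 33 genes, 23 kept their call in every alternative; the others lost it in at least 1, most often Srf, Hspb6, Nexn and Pdlim7. The 24 came with the interquartile range as a covariate, which ended 9 calls (Cryab, Hspb6, Nexn, Pdlim7, Ppp1r12b, Ppp1r14a, Srf, Tpm2 and Vcl); their differences there were -0.47 to -0.17, the smallest that of Srf, against -0.53 to -0.31. The cause was not tested. Without PRKO arrays 1 and 5 together, 28 fell, without Hspb6, Nexn (-0.34), Ppp1r12b, Srf (-0.31) and Vcl. Ppp1r12b changed sign with the mean of its probe sets (0.066). Jph2 passed with that mean (-0.38), with the block and in 3 other alternatives, and Ppp1r12a (-0.22) in 2. The pairs were run in 12 of the alternatives, and of the 7 called 1 lost its call, Acta2 against Actb after quantile normalization. Actn1 against Actn4 passed without PR+/- array 3 (0.16, adjusted p = 0.0198). With the 250 bases before the start alone, the same 8 and 0 of 39 genes held each motif.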
